A study of Homo sapiens with 6 samples.

Results

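Potassium channel genes were examined in LN229, an established human glioblastoma cell line, in wild-type (WT) cells and in cells whose PARP3 gene had been disrupted (PARP3-/-). The members were all protein-coding genes in the deposited table whose symbol starts with KCN followed by a further letter, which gave 73 of 33841 listed genes, of which 16508 were protein-coding. By symbol, 23 were pore-forming voltage-gated channels (KCNA, KCNB, KCNC, KCND, KCNH and KCNQ), 6 were silent voltage-gated modifiers (KCNF, KCNG, KCNS and KCNV), 11 were inward rectifiers (KCNJ), 11 were two-pore channels (KCNK), 6 were calcium-activated channels and their Slo relatives (KCNM, KCNN and KCNT) and 16 were auxiliary subunits or regulators (KCNAB, KCNE, KCNIP, KCNMB and KCNRG). The table lists only genes with at least 1 count in some library, so potassium channel genes with no count anywhere are not among the 73.

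Total RNA of both genotypes was sequenced after depletion of ribosomal RNA, with 3 biological replicates per genotype. The aim was to ask which transcripts change when PARP3 is lost. PARP3 belongs to the poly(ADP-ribose) polymerase family and attaches single ADP-ribose units to its targets. WT cells were the parental LN229 line with PARP3 intact (PARP3+/+). PARP3-/- cells were made from that line with a nickase form of Cas9 and guides to exons 2 and 5 of PARP3, and single cells were then grown into clones. The labels describe the disruption as running from exon 2 to exon 9 and do not name the clone behind the 3 libraries, so an effect of genotype and an effect of the clone cannot be told apart. Both genotypes were proliferating cells grown in the same serum-containing medium. The p-values measure the spread between these 3 and 3 libraries.

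Potassium channels let potassium leave or enter the cell along its gradient and so set the membrane potential and help to set cell volume. Voltage-gated channels open on depolarization, two-pore channels carry the background leak that holds the resting potential, inward rectifiers stabilize the potential near rest, and calcium-activated channels tie potassium efflux to intracellular calcium. In glia the inward rectifiers clear extracellular potassium, and in glioma cells calcium-activated channels are known for their part in the volume changes of migrating cells. Silent modifiers carry no current alone and need a conducting partner, while auxiliary subunits change the gating or the trafficking of a pore.

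The 6 libraries held 29692065 to 46010369 counts. Values are given as raw counts per gene or as CPM (the count scaled to a common library size), and levels of different genes are compared only as CPM per kb of the median transcript length in the table. The glial and glioma markers VIM, NES, CD44, SOX2, OLIG2 and S100B were present in every library, whereas GFAP had 1 to 17 counts. Of the endothelial markers, CDH5 did not pass 1 count in any library, PECAM1 had 1 to 4 counts and VWF had 9 to 26. Of the neuronal markers, RBFOX3 and STMN2 did not pass 1 count, while SYT1 (1787 to 3953 counts), SNAP25 (298 to 489), TUBB3 (147 to 252) and SYP (71 to 110) were present in every library. The glial list was not level between genotypes, with S100B lower (log2 fold change -1.06, adjusted p = 0.0256 in the edgeR quasi-likelihood test) and SLC1A3 higher (1.01, adjusted p = 0.00508) in PARP3-/- cells. With the replicate number as a block, 5 of the 8 tested glial markers were lower, namely S100B, FABP7 (adjusted p = 5.38e-07), OLIG2 (0.00152), SOX2 (0.00516) and CD44 (0.00721), and SLC1A3 was higher. Of all tested genes, 12.5% were lower and 11.8% were higher with the block. The part of these marker shifts in the results was not tested. PARP3 itself gave 1273, 942 and 995 counts in the WT libraries, in the order of their replicate numbers here and throughout, and 574, 1004 and 736 in the PARP3-/- libraries (log2 fold change -0.42, adjusted p = 0.307 without a replicate block and 0.047 with it). The table counts reads over the whole gene, so this level does not check a disruption of part of the coding sequence. In such bulk libraries, fewer cells with a transcript and less of it per cell cannot be told apart.

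LN229 cells expressed a narrow set of potassium channel genes at high level. In WT cells KCNN4, the intermediate-conductance calcium-activated channel, led with 152 ± 23.1 CPM per kb (mean ± SD, n = 3), and its libraries ranged from 132 to 178. The silent modifiers KCNG1 (85.7 to 151 CPM per kb) and KCNS3 (79.6 to 102) followed. By the median lengths, the ranges of KCNN4 and KCNG1 overlapped, as did those of KCNG1 and KCNS3. All 3 lay far above the fourth, KCNN3 (9.44 to 9.89 CPM per kb), a small-conductance calcium-activated channel. KCNAB2, a cytoplasmic beta subunit of voltage-gated channels, came next with 7.14 to 8.29 CPM per kb, and KCNMA1, the pore of the large-conductance (BK) channel, had 6.14 to 8.21. The places after the first 3, and how far the genes lie apart, depend on the length used. By canonical transcript lengths KCNMA1 (4.14 CPM per kb), KCNIP3 (3.41) and KCNK5 (2.83) followed KCNS3, with KCNAB2 at 1.75 and KCNN3 at 1.44. With the median lengths, KCNN4, KCNG1 and KCNS3 together made up 80.5 to 84.2% of the summed CPM per kb of all members in the WT libraries. In the PARP3-/- libraries they made up 81.7 to 82.4%.

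**Figure D1:**
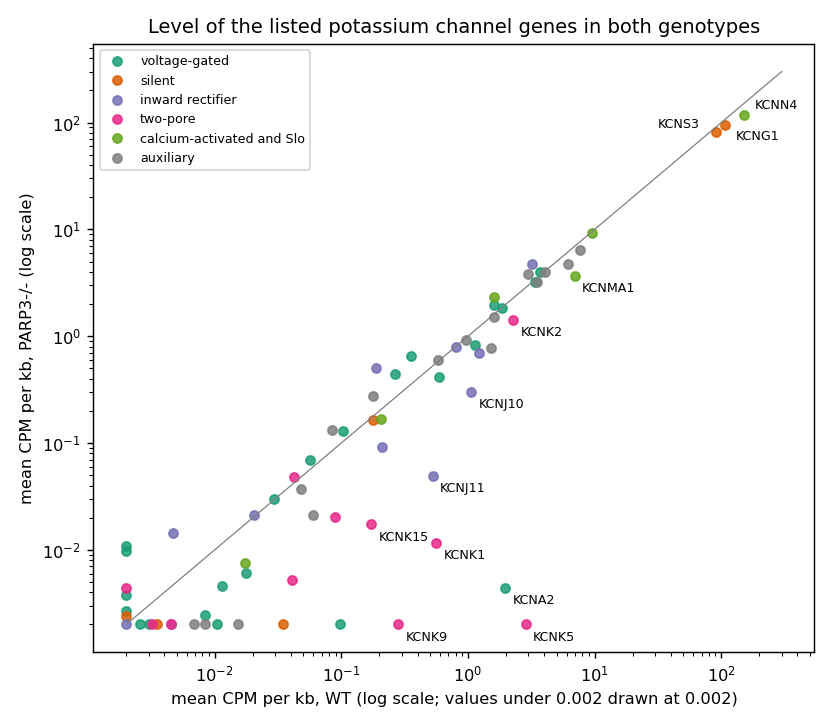
Mean CPM per kb of each of the 73 potassium channel genes in WT (horizontal, log scale) and PARP3-/- (vertical, log scale) cells, coloured by class, with the line of equal level. The most abundant genes lie at or just under the line at the upper right, while KCNK5, KCNA2, KCNK9, KCNK1, KCNJ11 and KCNK15 drop far below it.

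Enough reads for a test were found for 38 of the 73 members, namely 10 voltage-gated, 3 silent, 7 inward rectifier, 4 two-pore, 4 calcium-activated or Slo and 10 auxiliary genes. A gene passed through whichever genotype gave it counts, so a member silent in one genotype could enter on the other alone. Of the 35 members left out, 27 had at most 10 counts summed over all 6 libraries. Apart from KCNK9, described below, none of the 35 passed 11 counts in any library.

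In the edgeR fit of all 6 libraries without a replicate block, the potassium channel genes called were lower in PARP3-/- cells. Of the 38 tested members, 7 were lower at an adjusted p under 0.05 (edgeR quasi-likelihood test, Benjamini-Hochberg adjustment over all 17144 tested genes), which is 18.4%, where 3.33% of all tested genes were lower. The 7 were the two-pore channels KCNK5, KCNK1 and KCNK15, the inward rectifiers KCNJ10 and KCNJ11, the voltage-gated KCNA2 and the BK pore KCNMA1. In the other direction edgeR called 0 members, where 1.36% of all tested genes were higher, although 3 members were higher at an unadjusted p under 0.05. DESeq2, which tested 46 members, called 9 lower and 0 higher, beside 3.84% of all its tested genes lower and 2.09% higher. The 2 members it added were KCNJ3 and KCNK9.

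KCNA2, KCNK5 and KCNK9 had been picked by the study from these same samples for RT-qPCR, so their fall is not independent of that choice. Without these 3 genes, 5 of 36 tested members were lower (13.9%). The paper had also reported channel activity among the pathways of genes lower in these same samples. This share is therefore not independent of that report either.

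Replicates 1 of both genotypes deviated together (correlation 0.677), as did replicates 2 (0.517). The correlation of replicates 3 was 0.242, below the highest of a pair of unlike number, 0.41. The sample titles give the number and name no shared batch. A fit with the replicate number as a block widened the picture in both directions. With the block 14 of the 38 members (36.8%) were lower, beside 12.5% of all tested genes, and 6 (15.8%) were higher, beside 11.8% of all tested genes. Leaving out replicate 1 in both genotypes, a choice made after the data were seen, gave 13 members lower (34.2%, beside 10.1% of all tested genes) and 3 higher (7.89%, beside 8.91%). By position alone, the PARP3-/- libraries all lay below the WT libraries for 12 of the 38 tested members and all above for 3 of the 38. Among all tested genes, 12.0% lay below in this way and 10.8% above. The median log2 fold change of the 38 tested members was -0.13, against -0.01 for all tested genes, and that of the members not called was -0.07.

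**Figure D2:**
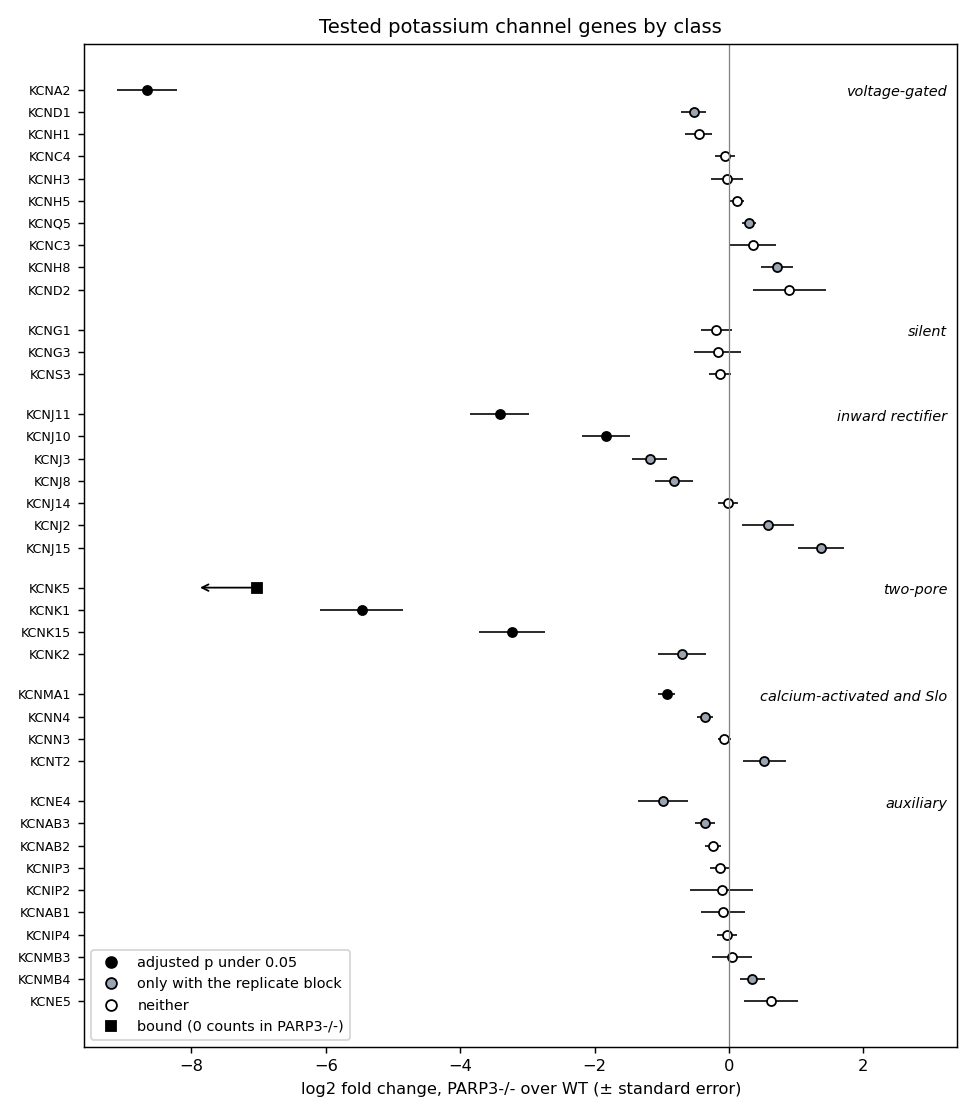
Log2 fold change (PARP3-/- over WT, with its standard error) of the 38 tested potassium channel genes, grouped by class. Filled points passed an adjusted p under 0.05 in edgeR, grey points only with the replicate block, and the square of KCNK5 is a bound with 3 counts in place of 0. The 7 filled points all lie to the left of 0, and the fitted values of KCNA2, KCNK1, KCNJ11 and KCNK15, with few counts in PARP3-/- cells, depend on the small count that the fit adds.

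A subset of the genes was close to silent in PARP3-/- cells. Of 36 members with at least 10 counts in every WT library, 6 did not pass 3 counts in any PARP3-/- library (16.7%), where 0.945% of all genes with at least 10 counts in every WT library did so. Apart from the 3 genes picked by the study, the figure was 3 of 33. In the reverse direction, 0 of 30 members with at least 10 counts in every PARP3-/- library fell to at most 3 in every WT library, and 0.0190% of all such genes did. The 6 were KCNK5, KCNK9, KCNK1, KCNK15, KCNA2 and KCNJ11. The shares above were not matched for WT level. Summed over the 3 WT libraries, KCNK9 had 45 counts, KCNJ11 had 49, KCNK15 had 53 and KCNK1 had 64. A smaller fall brings such genes to 3 counts than it does an abundant gene. The part of low level in the share was not tested.

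KCNK5, a two-pore channel of the TASK group that opens at alkaline pH, had the largest loss in counts of these 6. Its WT libraries gave 347, 419 and 518 counts, whereas none of the PARP3-/- libraries gave any. At the WT level, 323 to 477 counts would have been read per PARP3-/- library. With 3 counts set in place of each 0, the difference was at least 130-fold, and edgeR gave an adjusted p of 0.000422.

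KCNK9, an acid-sensitive channel of the TASK group, had 15, 10 and 20 counts in the WT libraries and 0 in each PARP3-/- library. It was at least 4.62-fold lower, and its counts were too low for the edgeR filter. DESeq2 called it lower (adjusted p = 0.000161), as did edgeR without a filter (adjusted p = 0.00161).

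KCNK1, a weakly conducting background channel, had 18, 25 and 21 counts in WT cells and 1, 0 and 0 in PARP3-/- cells. WT cells thus had 60.2 times the level, with a 95% interval of 10.4 to 2416 (exact binomial, counting error only; adjusted p = 0.00407 in edgeR). KCNK15, a TASK relative that is not known to conduct alone, had 20, 13 and 20 counts against 1, 1 and 3, a ratio of 9.98 (4.02 to 32.0, adjusted p = 0.0139). Both genes were chosen by at least 10 counts in every WT library and at most 3 in every PARP3-/- library, so their groups could not overlap.

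KCNA2, a delayed rectifier best known from axons, had 184, 185 and 216 counts in WT libraries and 1, 0 and 0 in PARP3-/- libraries. The ratio of WT to PARP3-/- was 551, with an interval of 98.4 to 21784, and the adjusted p was 0.000188 in edgeR. In the fits of all 6 libraries without the block, by edgeR and by DESeq2, it was the sole pore-forming voltage-gated member called.

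KCNJ11, the pore of ATP-sensitive potassium channels, had 18, 15 and 16 counts in WT cells and 2, 1 and 1 in PARP3-/- cells. The ratio was 11.5 (4.23 to 43.99, adjusted p = 0.00668 in edgeR). Its regulatory partner ABCC8 had 2, 7 and 6 counts against 0, 0 and 1, too few for the edgeR test.

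**Figure D3:**
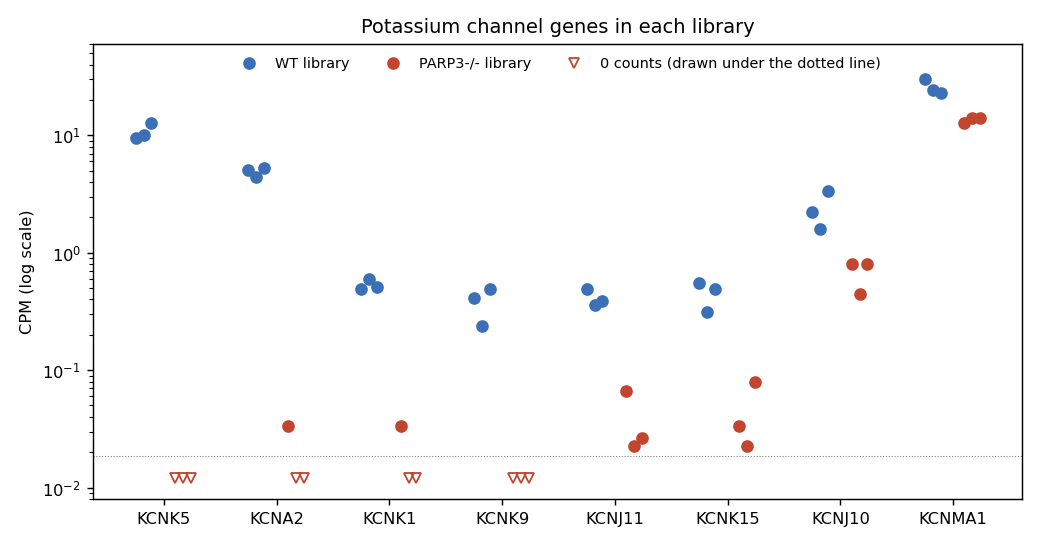
CPM (log scale) of 8 potassium channel genes in each of the 3 WT (blue) and 3 PARP3-/- (red) libraries, with libraries at 0 counts drawn as open triangles under the dotted line. The genes are the 7 called lower and KCNK9. In all 8 genes every PARP3-/- library lies below every WT library, by the smallest distance in KCNMA1. For the 6 near-silent genes the counts that chose them already fix this position. Of all tested genes, 12.0% lay below in this way.

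Promoter sequences are shown for the near-silent genes KCNK5, KCNK1 and KCNA2, beside KCNC4, which lies near KCNA2, and the abundant KCNS3, neither of which was called. The bases are those before the RefSeq start that lie outside the gene as the table bounds it, read 5′ to 3′ on the gene's strand, with each CG dinucleotide in capitals. They come from the RefSeq promoter table on GRCh38.p14. The positions are chr6:39229476-39229725 (minus strand) for KCNK5, chr1:233613856-233614003 (plus) for KCNK1, chr1:110631475-110631690 (minus) for KCNA2, chr1:110210064-110210313 (plus) for KCNC4 and chr2:17877597-17877846 (plus) for KCNS3.
KCNK5: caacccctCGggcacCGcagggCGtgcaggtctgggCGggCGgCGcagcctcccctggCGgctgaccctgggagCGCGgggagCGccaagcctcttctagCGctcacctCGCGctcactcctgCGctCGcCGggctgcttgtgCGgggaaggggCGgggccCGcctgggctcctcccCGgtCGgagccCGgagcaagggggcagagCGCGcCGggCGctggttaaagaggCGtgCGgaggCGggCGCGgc
KCNK1: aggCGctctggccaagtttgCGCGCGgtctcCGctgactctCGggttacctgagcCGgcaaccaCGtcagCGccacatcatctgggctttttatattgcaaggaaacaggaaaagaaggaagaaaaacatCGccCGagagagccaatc
KCNA2: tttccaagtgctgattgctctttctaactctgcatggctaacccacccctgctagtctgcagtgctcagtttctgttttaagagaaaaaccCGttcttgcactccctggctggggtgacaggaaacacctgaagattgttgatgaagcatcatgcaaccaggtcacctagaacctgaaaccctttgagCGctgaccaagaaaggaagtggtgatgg
KCNC4: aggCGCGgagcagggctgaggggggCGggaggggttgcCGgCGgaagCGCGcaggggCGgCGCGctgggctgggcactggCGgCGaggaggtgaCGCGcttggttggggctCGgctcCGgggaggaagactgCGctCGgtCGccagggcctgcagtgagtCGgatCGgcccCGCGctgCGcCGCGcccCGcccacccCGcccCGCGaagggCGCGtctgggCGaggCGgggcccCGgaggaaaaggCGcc
KCNS3: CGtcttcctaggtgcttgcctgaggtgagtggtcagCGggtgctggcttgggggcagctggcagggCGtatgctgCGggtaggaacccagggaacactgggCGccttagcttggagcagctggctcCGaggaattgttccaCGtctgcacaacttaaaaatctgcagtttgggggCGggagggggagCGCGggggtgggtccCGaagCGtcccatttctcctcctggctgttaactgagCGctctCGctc

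Of the 6 near-silent genes, KCNK9, KCNK15 and KCNJ11 had no entry. The stretch of KCNK5 held 31 CG dinucleotides in 250 bases, that of KCNK1 held 11 in 148 and that of KCNA2 held 2 in 216. Over the full window of 300 bases, from 250 before to 50 after the start, KCNK5 held 39 and KCNK1 held 38, since the bases left off the printed stretch of KCNK1 are rich in CG. KCNA2 held 4 at the start shown and 28 at a second listed start, which lies inside the gene. KCNC4 was as rich in CG as KCNK5, with 36 in 250 bases. KCNS3 held 14 in 250 bases at the start shown and 38 at a second listed start, which lies inside the gene. Windows of 300 bases were found for 56 of the 73 members, 89 in all, with a median of 17 CG against 14 over 35116 promoters of all genes. The 5 called members with an entry had 7 windows with a median of 29 CG and a range of 1 to 54, and the 25 tested members that were not called had 41 windows with a median of 15 and a range of 1 to 53. The GC box (GGGCGG on either strand) was in 5 of those 7 windows and in 23 of those 41, beside 45.0% of all promoters. The TATA box (TATAAA on either strand) was in 1 of 7 and 4 of 41, beside 11.5% of all promoters. These counts are descriptions, and no factor was measured at these windows.

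Two-pore channels lost most of their summed level, and most of the reads lost were those of KCNK5, a gene the study had picked. Summed over the WT libraries KCNK5 had 1284 counts, where KCNK1 had 64, KCNK15 had 53 and KCNK9 had 45. The class held 5.73 to 6.95 CPM per kb in the WT libraries and 0.984 to 2.46 in the PARP3-/- libraries, with no overlap. Of its 4 tested members 3 were lower. The fourth, KCNK2, a stretch-sensitive channel of the TREK group, had 112, 100 and 113 counts in WT cells and 84, 54 and 42 in PARP3-/- cells (log2 fold change -0.70, SE 0.36, adjusted p = 0.409 in edgeR, 0.0238 with the replicate block). In CPM its first PARP3-/- library lay within the WT range and the other 2 lay below it. KCNK2 carried most of what was left of the class, at 1.42 of 1.53 CPM per kb on average in PARP3-/- cells. KCNK6 (5, 2 and 8 counts against 0, 1 and 1) and KCNK7 (2, 6 and 6 against 1, 2 and 0) lay lower in PARP3-/- libraries without overlap, at counts too low for the edgeR test. KCNK4 had 1 to 5 counts in every library.

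Among the inward rectifiers KCNJ10 and KCNJ11 were lower, while the summed level of the class differed between genotypes by less than its SD, at 7.25 ± 1.05 CPM per kb in WT and 7.26 ± 1.32 in PARP3-/- cells (SD, n = 3). KCNJ10, the main inward rectifier of astrocytes, had 81, 67 and 138 counts in WT libraries and 24, 20 and 30 in PARP3-/- libraries (log2 fold change -1.83, SE 0.36, adjusted p = 0.0358 in edgeR). The groups did not overlap, but the WT libraries were widely spread. Its call was lost in 5 of the 6 fits that left out 1 library, where the adjusted p reached 0.140.

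KCNJ3, a G protein-gated subunit, had 39, 45 and 29 counts against 12, 21 and 14 (log2 fold change -1.18, SE 0.26). Its adjusted p was 0.0514 in edgeR, 0.00581 with the block and 0.0413 in DESeq2. KCNJ8, the other ATP-sensitive pore, had 75, 55 and 80 counts against 41, 38 and 31 (log2 fold change -0.82, SE 0.28, adjusted p = 0.195, 0.0125 with the block), and in CPM its groups overlapped.

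KCNJ2, a strong inward rectifier, was the most abundant of the class. It had 244, 717 and 420 counts in WT and 306, 893 and 780 in PARP3-/- replicates 1, 2 and 3 (log2 fold change 0.58, SE 0.39, adjusted p = 0.563). Replicate 1 was lowest in both genotypes, and with the block KCNJ2 was higher (adjusted p = 0.00544). KCNJ15 had 4, 5 and 7 counts against 14, 13 and 12 (log2 fold change 1.37, SE 0.35), with every PARP3-/- library above every WT library. Its adjusted p was 0.0854 in edgeR and 0.032 with the block. KCNJ14 stood at 2.80 ± 0.175 CPM in WT and 2.77 ± 0.290 in PARP3-/- cells.

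The calcium-activated channels kept their place as the leading conducting class, with 170 ± 24.7 CPM per kb in WT and 134 ± 2.41 in PARP3-/- cells. KCNMA1 was lower, with 1113, 1029 and 935 counts in WT libraries and 386, 622 and 535 in PARP3-/- libraries (log2 fold change -0.93, SE 0.13, adjusted p = 0.00873 in edgeR). This was the smallest of the 7 falls and rested on the most reads, and the groups were well apart.

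KCNN4 had 6503, 5575 and 6009 counts in WT and 3599, 5382 and 4432 in PARP3-/- libraries, which is 152 ± 23.2 CPM against 119 ± 1.77. Its groups did not overlap (log2 fold change -0.36, SE 0.12), and its adjusted p was 0.175 without the block and 0.00593 with it. KCNN3 had 18.8 ± 0.509 CPM in WT and 18.0 ± 1.54 in PARP3-/- cells (log2 fold change -0.07, SE 0.09, adjusted p = 0.827). KCNT2, a sodium-activated relative of the BK pore, had 327, 172 and 181 counts against 314, 321 and 285 (log2 fold change 0.53, SE 0.32, adjusted p = 0.518). Its WT replicate 1 was as high as the PARP3-/- libraries, and KCNT2 was higher with the block (adjusted p = 0.00654) and without WT replicate 1.

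Voltage-gated pores other than KCNA2 had log2 fold changes from -0.53 for KCND1 to 0.90 for KCND2, and none was called without the block in all 6 libraries, by edgeR or DESeq2. The class summed to 15.2 ± 0.191 CPM per kb in WT and 13.6 ± 0.508 in PARP3-/- cells, and 5 of its 10 tested members had a fitted value below 0. KCNC4, a rapidly inactivating channel whose gene lies near KCNA2, had 10.0 ± 1.69 CPM in WT and 9.61 ± 0.880 in PARP3-/- cells (log2 fold change -0.06, SE 0.15). KCNH5, an ether-a-go-go channel, had 9.60 ± 0.870 and 10.4 ± 0.655 CPM (log2 fold change 0.12, SE 0.11).

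With the replicate block, 1 further member of this class was lower and 2 were higher. KCND1, an A-type channel, had 77, 76 and 81 counts in WT and 50, 54 and 47 in PARP3-/- libraries (log2 fold change -0.53, SE 0.19, adjusted p = 0.219, 0.0404 with the block). KCNH8, an ELK-type channel, had 56, 44 and 60 counts against 85, 90 and 70 (log2 fold change 0.72, SE 0.24, adjusted p = 0.185, 0.0136 with the block). KCNQ5, which carries an M-type current, had 369, 429 and 395 counts against 338, 577 and 476 (log2 fold change 0.30, SE 0.10, adjusted p = 0.192, 0.0228 with the block and 0.0232 without replicate 1 in either genotype). In CPM none of these 3 genes overlapped between the genotypes.

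The silent modifiers differed by less than the spread between replicates. KCNG1 had 5671, 3710 and 3670 counts in WT and 3378, 3971 and 3427 in PARP3-/- libraries (log2 fold change -0.19, SE 0.23, adjusted p = 0.803 in edgeR). Its WT replicate 1 stood above the other 5 libraries. KCNS3 had 52.7 ± 6.42 CPM in WT and 48.1 ± 9.36 in PARP3-/- cells (log2 fold change -0.13, SE 0.16), and KCNG3 had 0.668 ± 0.237 and 0.608 ± 0.170 CPM (log2 fold change -0.17, SE 0.35).

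Auxiliary subunits summed to 29.4 ± 1.06 CPM per kb in WT and 26.5 ± 1.97 in PARP3-/- cells. Of the 10 tested, edgeR called 0, with 2 lower at an unadjusted p under 0.05, DESeq2 called 0, and the fit with the block called 2 lower and 1 higher, near the 12.5% and 11.8% of all tested genes. KCNE4, which inhibits several voltage-gated channels, had 167, 85 and 124 counts in WT and 69, 49 and 58 in PARP3-/- libraries (log2 fold change -0.98, SE 0.37, adjusted p = 0.251). Both genotypes were highest in replicate 1, the groups overlapped in CPM, and the adjusted p was 0.00071 with the block. KCNAB3, a beta subunit, had 6.64 ± 0.540 CPM in WT and 5.21 ± 0.783 in PARP3-/- cells (log2 fold change -0.36, SE 0.15, adjusted p = 0.302, 0.0431 with the block).

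KCNMB4, the beta subunit of BK channels that is prominent in brain, had 213, 334 and 392 counts against 275, 478 and 374, while its pore KCNMA1 was lower. Its log2 fold change was 0.35 (SE 0.19, adjusted p = 0.442, 0.0389 with the block). KCNAB2 had 7.32 ± 0.570 CPM in WT and 6.20 ± 0.256 in PARP3-/- cells (log2 fold change -0.24, SE 0.12, adjusted p = 0.382), and KCNIP4, a calcium-binding partner of A-type channels, had 5.94 ± 0.812 and 5.82 ± 0.666.

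Genes around the 7 lower members were compared to see whether whole neighbourhoods fell with them. On hg38, as the table gives it, KCNK5 lies at chr6:39188973-39229450, KCNA2 at chr1:110519837-110631474, KCNK1 at chr1:233614004-233672512, KCNJ11 at chr11:17385859-17389331, KCNK15 at chr20:44745780-44752313, KCNJ10 at chr1:159998651-160070483 and KCNMA1 at chr10:76869601-77638369. Within 500 kb of them, 63 other genes were tested, of which 3 were lower (4.76%) and 1 was higher. Of all tested genes, 3.33% were lower and 1.36% were higher. Around KCNK5, KCNA2, KCNK1, KCNJ11 and KCNMA1, edgeR called 0 of 35 neighbours. These are the members of the 7 without a called neighbour, so the 0 follows from the grouping. Of the 35 neighbours, 6 were at an unadjusted p under 0.05 in edgeR, 6 were called with the block and 1 was called by DESeq2. With the block, 3 of 16 neighbours of KCNJ10 were lower and 6 were higher. Near KCNK15, 4 of 12 were lower and 0 were higher with the block. Of all tested genes, 12.5% were lower and 11.8% were higher with the block.

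The called neighbours lay near KCNJ10 and KCNK15. Near KCNJ10, IGSF9 had 22, 11 and 12 counts in WT and 1, 0 and 1 in PARP3-/- libraries, and VANGL2 had 153, 117 and 142 against 0 in each PARP3-/- library. CFAP45 moved the other way there, from 24, 29 and 36 counts to 56, 106 and 75 (log2 fold change 1.48, adjusted p = 0.00861 in edgeR). Near KCNK15, FITM2 was lower (log2 fold change -0.45, adjusted p = 0.0186).

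Some members overlap other genes, and the strand setting of the counting is not given in the sources used here. KCNK15 overlaps its antisense gene KCNK15-AS1, with 35 counts summed over the WT libraries and 12 over the PARP3-/- libraries. KCNK15 also overlaps AL118522.1 on its own strand, with 10 and 0 counts. Reads on more than 1 gene were dropped, so the values of KCNK15 are uncertain by an amount that these counts do not measure. On its own strand KCNJ10 overlaps PIGM, which had 2746 and 2366 counts (log2 fold change -0.13, adjusted p = 0.703 in edgeR).

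**Figure D4:**
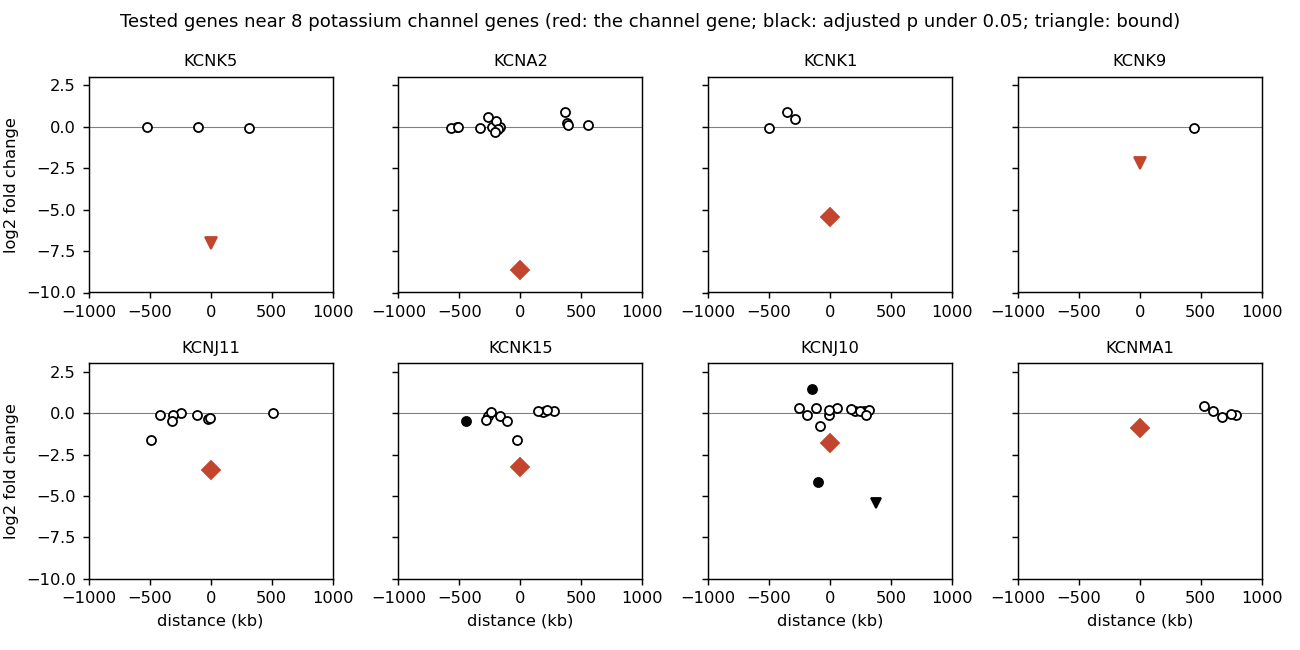
Log2 fold change (PARP3-/- over WT) of tested genes within 500 kb of 8 potassium channel genes against the distance between gene centres in kb. The channel gene is in red, neighbours with an adjusted p under 0.05 are black and others white, and triangles are bounds for genes at 0 counts in PARP3-/- cells. Around KCNK5, KCNA2 and KCNK1 every neighbour lies within 1 log2 unit of 0 and the channel gene lies far below.

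Other genes that act with potassium channels or move potassium were listed by name, 47 in all, of which 37 were in the table and 24 were tested. Of these, 3 were lower and 1 was higher in edgeR, beside 3.33% and 1.36% of all tested genes. With the block 8 were lower and 5 higher, beside 12.5% and 11.8%. The median log2 fold change of the 24 was -0.08. DPP6, an auxiliary subunit of A-type channels, had 30, 27 and 22 counts in WT libraries and 0 in each PARP3-/- library and fell at least 8.13-fold (adjusted p = 0.00683). AMIGO1, a partner of voltage-gated channels, had 217, 262 and 217 counts against 75, 95 and 64 (log2 fold change -1.47, SE 0.18, adjusted p = 0.00513). ADAM23, which belongs to the LGI1 complex linked to KCNA channels, had 512, 673 and 820 counts against 251, 337 and 335 (log2 fold change -1.02, SE 0.15, adjusted p = 0.0127).

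HCN2, a hyperpolarization-activated channel that also passes sodium, was higher, with 112, 86 and 104 counts in WT and 204, 231 and 182 in PARP3-/- libraries (log2 fold change 1.13, SE 0.21, adjusted p = 0.0288). In all 4 of these genes the genotypes did not overlap.

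Leaving out 1 library changed several calls. Without PARP3-/- replicate 2 the number of lower members fell from 7 to 3, namely KCNK5, KCNK1 and KCNA2, and KCNMA1 (adjusted p = 0.0504), KCNJ11 (0.0515), KCNK15 and KCNJ10 no longer passed. KCNK15 also missed the threshold without WT replicate 3.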

How the data were processed

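RNA of 3 WT and 3 PARP3-/- LN229 libraries was measured by stranded, ribosome-depleted total RNA sequencing (the labels' molecule field says polyA RNA). Per the labels and the methods, the authors made the deposited raw counts per Ensembl gene with cutadapt 1.10, Bowtie2 2.2.8, STAR 2.5.3a on hg38 and HTSeq 0.6.1p1 in union mode, which drops reads on more than 1 gene. The table also holds 12 columns of normalized values and 3 of the authors' own comparison (log2 fold change, p-value, adjusted p-value), none of which were used. Groups and replicate numbers come from the sample titles. The members, classes and gene lists were chosen with earlier results of these data known.

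Counts were fitted over all genes in R 4.3.3 with edgeR 4.0.16 (quasi-likelihood test, TMM, filterByExpr with a minimum count of 10, genotype alone), with Benjamini-Hochberg adjustment. Standard errors were derived from edgeR's F statistics. CPM used TMM-scaled library sizes. Bounds set 3 counts in each PARP3-/- library. Named were members called in edgeR, with the block or in DESeq2, the 3 genes the study picked, the 3 members of each class highest per kb in WT and the uncalled member of each class with the smallest p. KCND2, KCNJ14, KCNK4, KCNK6, KCNK7 and ABCC8 were added after their values were seen. Values of some genes are not reported here. Same-numbered libraries had correlations of 0.677, 0.517 and 0.242 in the 3 pairs, while pairs of unlike number ranged from -0.628 to 0.41. The third pair thus did not stand above every unlike pair. The block is given as an alternative beside each result it changes. The steps were tested on simulated data. Alternatives were DESeq2 1.42.0, median-of-ratios size factors, no filter, a mean count of at least 50, the replicate block, protein-coding genes alone, an adjusted p under 0.001 with a log2 fold change beyond 1, and each library left out. Exact intervals cover counting error only. Depth was 29692065 to 46010369 counts per library.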

Additional observations from a re-analysis of the deposited data

How the results depend on the processing

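The count of lower members was 7 in the edgeR fit. It was 9 with DESeq2, 9 with no filter on low counts, 7 with median-of-ratios size factors and 8 among protein-coding genes alone. It was 4 at a mean count of at least 50, which leaves fewer genes to test, and 2 at an adjusted p under 0.001 with a log2 fold change beyond 1. With the replicate block it was 14, and without replicate 1 in either genotype, which was added after the data were seen, it was 13. Leaving out each library in turn gave 3 to 8. The count of higher members was 0, and it became 6 with the replicate block, 3 without replicate 1 in either genotype and 0 to 1 when each library was left out. The causes of these shifts were not tested.

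Of 330 values of the 28 named and tested members under the alternatives, 286 kept their direction and their side of the threshold, 26 passed it in addition, 9 no longer passed it and 9 changed sign. The sign changed only in members near 0. Their log2 fold changes ranged, over the fits without 1 library, from -0.11 to 0.078 for KCNIP4, -0.33 to 0.13 for KCNG1, -0.42 to 0.079 for KCNG3, -0.24 to 0.019 for KCNS3 and -0.18 to 0.062 for KCNC4. KCNG1 stood at 0.013 without replicate 1 in either genotype. The order of KCNN4, KCNG1 and KCNS3 was the same with canonical transcript lengths of GENCODE 44 (78.0, 50.7 and 22.5 CPM per kb in WT cells), but KCNN3 fell from 9.59 to 1.44 and KCNAB2 from 7.63 to 1.75, below KCNMA1 (4.14), KCNIP3 (3.41) and KCNK5 (2.83). The block changed no call of a named member beyond those given beside the results. Too few counts for the edgeR test were found for 35 members, and genotype cannot be told apart from clone.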

Other observations

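Some genes of calcium channels were also lower in PARP3-/- cells. Of 18 voltage-gated calcium channel genes 8 were tested and 2 were lower, beside 3.33% of all tested genes. CACNA2D1, an alpha2delta subunit that brings calcium channels to the membrane, had 54, 73 and 71 counts in WT and 3, 1 and 0 in PARP3-/- libraries (adjusted p = 0.00208 in edgeR). CACNA1D, the pore of an L-type channel, had 21, 24 and 18 counts against 4, 0 and 0 (adjusted p = 0.046 in edgeR). With the replicate block CACNA2D4 was higher (adjusted p = 0.0119). The median log2 fold change over the tested calcium channel genes was 0.04.

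Markers of other cell types were summed per library. The 3 muscle markers summed to at most 0.337 CPM in any library and the 3 endothelial markers to at most 0.822. The 2 listed blood cell markers summed to 0.214 to 0.329 CPM in WT and 0.212 to 0.564 in PARP3-/- libraries. The neuronal list, led by SYT1, summed to 62.0 to 125 CPM in WT and 69.1 to 103 in PARP3-/- libraries.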
